A study of Mus musculus with 12 samples.

Results

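The kinesin family apart from Kif13a and Kif13b was represented by 46 gene symbols of the 54582 that both count tables hold. Members were taken by name: symbols of the Kif and Kifc series, the light chain genes Klc1 to Klc4, and Kifap3. Of the 46, 40 encode motors and 5 encode a light chain or the kinesin-associated protein Kifap3. The remaining symbol, Kif16bos, is an antisense RNA gene whose name matches the pattern; it encodes no motor and had at most 2 counts in any library. By role, 20 members were assigned to cargo transport, 13 to mitosis, 7 to the cilium and 5 to none of these. The measurements come from primary mouse bone marrow-derived macrophages from tibial marrow, in 4 groups of 3 libraries. The wild type groups are called WT and WT + AC, and the groups labelled Kif13b-/- are called KO and KO + AC. AC stands for apoptotic Jurkat cells, from a line grown out of a human T cell leukaemia, given for 90 min at 5 apoptotic cells per macrophage. The labels also call the mutant genotype a knock down, and they give a time of 6 to 8 weeks for every library. For the libraries without AC they list serum at 10, 10 and 11% in WT and at 12, 13 and 14% in KO. Serum as labelled and genotype cannot be told apart in that comparison.

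Kinesins are ATP-driven motors that move along microtubules, most of them toward the plus end at the cell periphery. Transport kinesins carry vesicles, organelles and RNA, with kinesin-1 built from KIF5 heavy chains and KLC light chains and kinesin-2 from KIF3 motors and KIFAP3. Mitotic kinesins build the spindle, move chromosomes and complete cytokinesis, and are made chiefly in dividing cells. In macrophages, kinesins are known for moving endosomes, lysosomes and secretory vesicles.

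Total counts ran from 18256622 to 18770757 in the libraries without AC and from 17000976 to 17285594 in those with AC. The number of symbols with a count was 18335 to 18540 without AC and 31787 to 32801 with AC. The 2 conditions stand in separate tables, so condition and table cannot be told apart. KO library 3 stood nearer to WT than KO libraries 1 and 2 for several members, such as Kif5b at 57.4 against 38.3 and 40.2 counts per 1000000 (CPM), and results are also given without these libraries. Kif13b, the gene named in the labels, had 599, 546 and 535 counts in WT and 281, 345 and 424 in KO. With AC it had 1600, 1561 and 1634 counts in WT + AC and 1697, 1697 and 1721 in KO + AC. It was thus lower in the libraries labelled KO without AC (log2 fold change -0.59, edgeR adjusted p = 0.0087) and higher in those labelled KO with AC (0.13, edgeR adjusted p = 0.0261), which goes against that label. Whole-gene counts do not show whether a deleted exon is missing. KO and KO + AC therefore mean the libraries so labelled throughout. The labels do not state if replicate libraries are separate animals or cultures, and the p-values cover the spread among these libraries alone, which may be technical.

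Per kb of exon, the kinesin transcripts in resting WT macrophages were led by the kinesin-1 light chain Klc4. Levels are CPM per kb of exon and were scaled separately without and with AC. The length is that of all annotated exons of a gene merged, and the order of genes depends on it. Klc4 stood at 40.1 ± 2.65 CPM per kb (SD, n = 3), followed by Kif1c, a kinesin-3 motor of vesicle transport, at 16.7 ± 1.38 and Klc1, another kinesin-1 light chain, at 16.0 ± 0.919. Kif5b, the kinesin-1 heavy chain, had 8.98 ± 0.745, Kif3a, a kinesin-2 motor subunit, 8.40 ± 0.294 and Kifap3, the accessory subunit of kinesin-2, 5.99 ± 0.67. The 3 libraries of Kif1c overlapped those of Klc1, those of Kif5b overlapped those of Kif3a, and those of Kifap3 overlapped those of Kif3b, the next gene in the order. On this scale Klc4 lay above all other members in each WT library. The light chain symbol thus had more transcript per kb than the heavy chain Kif5b, a comparison of RNA levels only. The exon length was 2377 bp for Klc4 and 7276 bp for Kif1c. In CPM not divided by length, Kif1c, at 133, 116 and 115, lay above Klc4, at 102, 89.8 and 94.1, in every WT library. In WT + AC the order was Kif1c at 40.9 ± 0.651 CPM per kb, Klc1 at 24.8 ± 1.17, Klc4 at 17.9 ± 0.417, Kif5b at 16.9 ± 0.813, Kif3b at 9.43 ± 0.251 and Kif3a at 7.12 ± 0.109. Of these, Klc4 overlapped Kif5b, and Kif3a overlapped Klc2. A mean of at least 1 CPM was reached by 33 members in WT and in KO and by 38 in WT + AC and in KO + AC. Scaled over all 12 libraries, Kif24 also reached it in WT (1.04) and KO (1.09), Kif1a in WT (1.10) and Klc3 in KO (1.08). On that scale Klc3 fell short in KO + AC (0.939). Kif12, Kif26a, Kif28 and Kif2b had no count in any of the 6 libraries without AC. The filter on low counts, which needs a minimum count of 10 in enough libraries, left 37 members to test without AC and 41 with AC. Kif12, Kif16bos, Kif17, Kif28 and Kif2b were not tested in either table, and Kif21a, Kif26a, Kif27 and Kif6 were tested with AC only. A count of 0 allows up to 3 counts per library, and this limit covers counting error only.

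**Figure D1:**
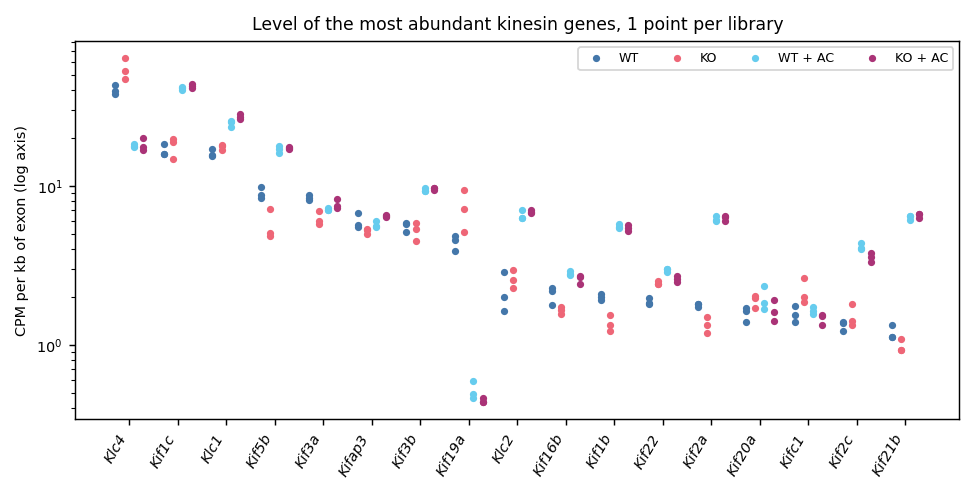
CPM per kb of exon on a log axis, scaled separately without and with AC, 1 point per library, for the most abundant kinesin genes in the 4 groups. Klc4 leads in WT at 40.1 CPM per kb and Kif1c leads in WT + AC at 40.9.

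Without AC, 3 transport motors were lower and 1 light chain and 1 cilium motor were higher in KO than in WT. Kif5b had 66.9, 69.8 and 78.4 CPM in WT and 38.3, 40.2 and 57.4 in KO. All KO libraries lay below all WT libraries, with KO library 3 nearest to WT. The log2 fold change was -0.66 (SE 0.143, edgeR adjusted p = 0.00613). Kif1b, a kinesin-3 motor that carries synaptic vesicle precursors, mitochondria and lysosomes, had 33.9, 35.1 and 36.7 CPM in WT and 21.5, 23.6 and 27.2 in KO. The groups did not overlap, and the log2 fold change was -0.54 (SE 0.129, edgeR adjusted p = 0.00994). Kif3a had 30.1, 29.1 and 31.2 CPM in WT and 20.6, 21.4 and 24.9 in KO. It too had every KO library below every WT library (log2 fold change -0.43, SE 0.129, edgeR adjusted p = 0.0276).

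Klc4 had 102, 89.8 and 94.1 CPM in WT and 126, 151 and 111 in KO. All KO libraries were above all WT libraries, and KO library 2 was the highest (log2 fold change 0.44, SE 0.129, edgeR adjusted p = 0.026). Kif19a, a kinesin-8 motor that shortens microtubules at the tip of motile cilia, had 18.5, 19.7 and 15.7 CPM in WT and 28.9, 38.3 and 20.9 in KO. KO library 3 stood just above the WT libraries and KO library 2 far above them. The log2 fold change was 0.705 (SE 0.168, edgeR adjusted p = 0.0102).

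Besides these 5 no member was called of the 37 tested, and 16.2% of all genes passed in this comparison, 7.94% upward and 8.24% downward. The share of kinesins called was near that of all genes, and their median log2 fold change was 0.07 against 0.02 over all genes. Groups did not overlap for 15 of the 37 tested members, against 33.6% of all genes. At an unadjusted p under 0.05 by edgeR there were 10 members, for which the share of all genes was not worked out. DESeq2 called the same 5. No member called by edgeR differed by at least 2-fold, where 1.27% of all genes did. Among the 13 mitotic members edgeR and DESeq2 called 0, with 3 by edgeR and 2 by DESeq2 at an unadjusted p under 0.05.

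Other subunits of kinesin-1 and kinesin-2, and the paralog Kif1c, did not pass the test. Kif3b, the partner of Kif3a, had a log2 fold change of -0.09 (95% interval -0.36 to 0.18), Kif3c -0.03 (-0.40 to 0.34) and Kifap3 -0.20 (-0.47 to 0.07). Of the remaining light chains, Klc1 gave 0.13 (-0.11 to 0.38) and Klc2 0.26 (-0.12 to 0.63), with Klc3 at 0.69 (-0.02 to 1.40). The heavy chains Kif5a and Kif5c gave 0.35 (-0.26 to 0.95) and 0.06 (-0.33 to 0.46). Kif1c gave 0.09 (-0.18 to 0.35). Kif22, a chromosome-binding motor of mitosis, had 9.71, 8.89 and 8.98 CPM in WT and 11.9, 12.4 and 11.8 in KO. Its groups did not overlap, but the test was not passed (log2 fold change 0.38, SE 0.145, edgeR adjusted p = 0.0665).

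The KO difference moved with transcript length over all genes. The median log2 fold change was 0.28 in the shortest eighth of genes by exonic length and -0.23 in the longest, and kinesin transcripts are long, with a median of 5635 bp for the tested members against 4266 bp. With an offset for length and GC content, Kif1b (-0.35, edgeR adjusted p = 0.0238) and Kif3a (-0.42, edgeR adjusted p = 0.019) kept their calls. Kif5b (-0.31, edgeR adjusted p = 0.063), Kif19a (0.45, edgeR adjusted p = 0.0882) and Klc4 (0.12, edgeR adjusted p = 0.37) lost theirs, and Kif22 gained one (0.39, edgeR adjusted p = 0.0408). Without KO library 1 no member was called by edgeR, with 9 at an unadjusted p under 0.05, while the log2 fold changes were -0.55 for Kif5b, -0.47 for Kif1b, -0.38 for Kif3a, 0.46 for Klc4 and 0.72 for Kif19a. Without KO libraries 1 and 2 together, 1 KO library stood against 3 of WT, and it is assumed to vary as those do; that fit called none, with 5 at an unadjusted p under 0.05, and the same genes had -0.32, -0.37, -0.27, 0.22 and 0.21. Without WT library 3 only Kif5b was called, without KO library 2 Kif1b and Kif5b, without WT library 2 Kif19a, Kif1b and Kif5b. Without KO library 3 there were 9 calls, 2 higher and 7 lower. The share of all genes called was not worked out for these fits, so the counts show only how the calls of members depend on single libraries. Fibroblast markers moved in the same comparison, with 7 of 12 tested higher in KO and a median log2 fold change of 0.57, among them the smooth muscle actin Acta2 (1.68, edgeR adjusted p = 9.08e-08) and the collagen Col3a1 (1.00, edgeR adjusted p = 0.00013). Their part in the kinesin differences was not tested.

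**Figure D2:**
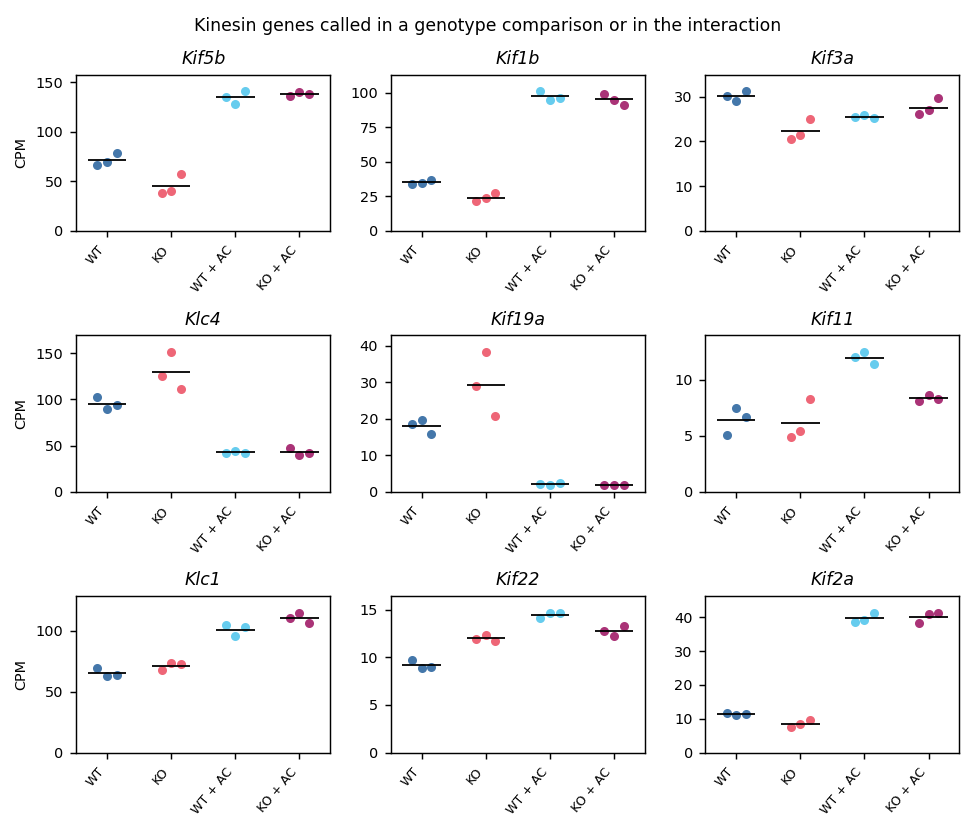
CPM per library (points) and group means (bars) for the 9 kinesin genes called in a genotype comparison or in the interaction, scaled separately without and with AC. Kif5b, Kif1b and Kif3a separate KO from WT without AC, and Kif11 separates KO + AC, at 8.08 to 8.64, from WT + AC, at 11.4 to 12.4.

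With AC, the mitotic motor Kif11 was lower and the light chain Klc1 slightly higher in KO + AC than in WT + AC. Kif11, the kinesin-5 motor that pushes spindle poles apart, had 12.0, 12.4 and 11.4 CPM in WT + AC and 8.08, 8.64 and 8.28 in KO + AC. The 3 libraries of each group lay close together and the groups were far apart. The log2 fold change was -0.52 (95% interval -0.71 to -0.32, SE 0.097, edgeR adjusted p = 0.000108). Klc1 had 104, 95.3 and 103 CPM in WT + AC and 111, 114 and 107 in KO + AC. Its groups did not overlap, with a small log2 fold change of 0.13 (SE 0.041, edgeR adjusted p = 0.0238).

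Kif11 and Klc1 were the 2 members called of 41 tested, where 11.3% of all genes were called, 6.58% higher and 4.75% lower. At an unadjusted p under 0.05 by edgeR there were 9 members, again without a share of all genes beside it. No called member differed by at least 2-fold, where 0.17% of all genes did. The call of Kif11 held in 12 of 13 alternatives and was lost in the joint fit of all libraries (-0.49, edgeR adjusted p = 0.156), where the spread of the libraries without AC enters. The call of Klc1 was lost in 5 of 13, among them DESeq2 (adjusted p = 0.0638), without KO + AC library 1 (edgeR adjusted p = 0.0764) or 2 (0.156) and without WT + AC library 2 (0.195).

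All 13 mitotic members had a negative log2 fold change in KO + AC against WT + AC, where 55.1% of all genes had one. Their median was -0.22, with a range from -0.52 for Kif11 to -0.16 for Kifc1, against a median of -0.02 over all genes. Besides Kif11 none passed the test alone. Kif2c, which takes apart microtubules at kinetochores, came nearest with 17.6, 18.9 and 17.4 CPM in WT + AC and 14.4, 16.5 and 15.6 in KO + AC (log2 fold change -0.22, edgeR adjusted p = 0.0645). Groups did not overlap for 5 of the 13, namely Kif11, Kif22, Kif23, Kif2c and Kifc1, where 26.4% of all genes did not overlap. Kif23, the motor of the central spindle in cytokinesis, had 11.8, 12.3 and 11.7 CPM in WT + AC and 9.57, 10.2 and 11.3 in KO + AC. Kif18a, a kinesin-8 motor that limits chromosome oscillation, had overlapping groups with a log2 fold change of -0.41. The sign was negative for 13 of 13 under every alternative run. The 13 are the members assigned to mitosis here, an assignment made with earlier results of these data known. Kif2a, a kinesin-13 like Kif2c but not assigned to mitosis, had a log2 fold change of 0.02. Of the mitotic kinesins named outside the pattern, Cenpe had -0.58 and Stard9 0.10. Without AC, 6 of the 13 were negative, where 47.3% of all genes were, and 2 of 13 with the length and GC offset.

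The summed level of the 13 mitotic kinesins was 53.0 to 62.0 CPM in WT and 59.9 to 71.4 in KO. With AC, where scaling was separate, it was 102 to 115 CPM in WT + AC and 86.4 to 98.5 in KO + AC. The KO + AC libraries thus lay below all WT + AC libraries, while the libraries without AC overlapped. Bulk RNA cannot tell fewer cells of a type from less RNA per cell.

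**Figure D3:**
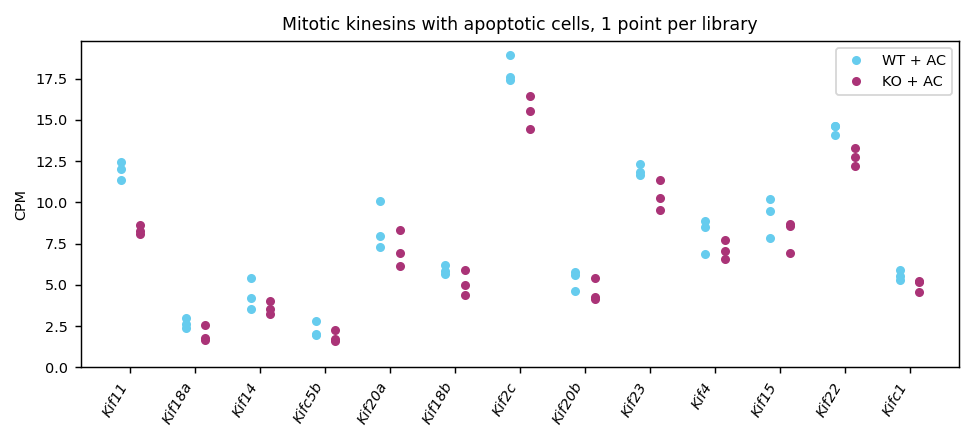
CPM of the 13 mitotic kinesin genes in the WT + AC and KO + AC libraries, 1 point per library, ordered by log2 fold change. Kif11 has the largest log2 fold change, -0.52, and all 13 genes have a lower mean in KO + AC.

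Other genes of the cell division machinery were counted as a list. Of 24 mitotic partner genes tested, such as cyclins, kinases and spindle proteins, 14 were lower and 1 was higher in KO + AC, with a median log2 fold change of -0.27 and 23 negative values. The DNA topoisomerase Top2a was lower (-0.26, edgeR adjusted p = 4.21e-05), and the proliferation antigen Mki67 was the gene that was higher (0.32, edgeR adjusted p = 5.89e-08). Cenpe, a kinetochore kinesin with a name outside the pattern, had 6.73, 9.47 and 8.12 CPM in WT + AC and 5.11, 5.51 and 5.70 in KO + AC (log2 fold change -0.58, SE 0.126, edgeR adjusted p = 0.000902). Its groups did not overlap. Without AC, 6 of the 24 partners were called higher in KO, among them Cdc20 (0.76, edgeR adjusted p = 0.00295) and Cdca8 (0.69, edgeR adjusted p = 0.00501), while 8 had a negative value.

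Summed markers of other cell types were lower in KO + AC as well. The sums were scaled separately without and with AC, so they have no common scale across that split. The 16 T cell markers summed to 113 to 125 CPM in WT + AC and 104 to 111 in KO + AC, against 47.2 to 48.1 in WT and 53.3 to 63.8 in KO, where Cd3d and Bcl11b were at 0 in all WT libraries. Of 12 tested with AC, 2 were lower in KO + AC and 11 were negative. Much of the sum was Lat, with 28.8 CPM in WT and 19.8 in WT + AC. By gene in the joint fit, 9 of 12 were higher and 2 lower in WT + AC than in WT, where 48.3% and 36.7% of all genes were. Their median log2 fold change was 5.32. In KO + AC against KO, 9 were higher and 2 lower, with a median of 4.93. In the fit without AC, 3 of the 16 T cell markers passed the filter on low counts. Most of the 12 thus entered the joint test through their counts with AC, which favours higher values, so these counts and medians are no test of a rise. The 12 fibroblast markers summed to 3240 to 3348 CPM in WT + AC and 2783 to 3061 in KO + AC, against 1585 to 1891 in WT and 1726 to 2219 in KO, and 7 of 11 tested were lower in KO + AC. The fibroblast sums are higher with AC on these separate scales. By gene in the joint fit, 8 of 12 tested were lower and 4 higher in WT + AC than in WT. In KO + AC against KO, 9 were lower and 2 higher. In the interaction 8 of 12 were lower. None of the fibroblast markers was at 0 in all libraries of a group. Of the 10 macrophage markers, all with counts in every group, 7 were higher in KO + AC. The part of these in the mitotic difference was not tested.

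Promoters of the mitotic members are shown because these genes shared a direction. Promoters of 300 bases, from 250 before to 50 after the start, were matched in RefSeq GRCm38.p6 for 37 of the 46 members. TTTGAA, the core of the cell cycle genes homology region (CHR), was searched on both strands (reverse complement TTCAAA). It was found in 11 of 12 mitotic members, all but Kif18a, and in 3 of 25 other members, against 20.2% of 27025 genes. In the last 100 bases it was found in 9 of 12 mitotic and 2 of 25 other members, against 5.72% of genes. CCAAT (reverse complement ATTGG) was found in 8 of 12 mitotic and 12 of 25 other members, against 41.1% of genes. A match is a description of letters, and no binding was measured. The windows below run from 70 bases before to 50 after the start, 5′ to 3′ on the gene's strand, with both motifs in capitals on whichever strand they lie. Kif11 and Kif22 are the mitotic members called in a genotype comparison or the interaction, Kif23 and Kif4 act in the central spindle, Kif20b holds the CHR core 2 times, and Kifc1 and Kifc5b are near-identical copies.
Kif11, chr19:37376312-37376431, + strand: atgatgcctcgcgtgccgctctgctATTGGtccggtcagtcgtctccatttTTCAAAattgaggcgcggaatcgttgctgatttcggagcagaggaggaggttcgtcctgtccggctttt
Kif22, chr7:127042371-127042490, - strand: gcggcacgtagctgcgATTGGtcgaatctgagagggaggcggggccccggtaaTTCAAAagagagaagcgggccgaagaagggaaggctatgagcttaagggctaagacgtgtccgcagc
Kif23, chr9:61946750-61946869, - strand: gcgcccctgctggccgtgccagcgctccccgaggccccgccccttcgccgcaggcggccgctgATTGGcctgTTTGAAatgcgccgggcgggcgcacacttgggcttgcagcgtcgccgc
Kif4, chrX:100625995-100626114, + strand: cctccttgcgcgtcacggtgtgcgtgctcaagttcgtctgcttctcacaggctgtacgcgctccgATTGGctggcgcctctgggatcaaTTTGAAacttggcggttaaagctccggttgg
Kif20b, chr19:34922288-34922407, + strand: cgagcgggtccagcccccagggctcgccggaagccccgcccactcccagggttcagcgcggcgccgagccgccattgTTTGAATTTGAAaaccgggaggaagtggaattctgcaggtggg
Kifc1, chr17:33890584-33890703, - strand: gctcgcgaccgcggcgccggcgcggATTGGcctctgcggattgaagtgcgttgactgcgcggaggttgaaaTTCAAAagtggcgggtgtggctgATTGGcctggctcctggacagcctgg
Kifc5b, chr17:26917021-26917140, + strand: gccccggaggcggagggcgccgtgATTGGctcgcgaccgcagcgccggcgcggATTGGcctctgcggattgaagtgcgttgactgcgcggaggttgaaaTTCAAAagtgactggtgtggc

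Each of the 7 windows shown holds the CHR core in either orientation, and of these all but that of Kif20b hold a CCAAT box on either strand. The windows of Kif15 and Kif18b, not shown, also hold the core, and of them Kif18b holds CCAAT. The windows of Kifc1 and Kifc5b carry the same stretch around the core, and reads of these genes may have been split between them, so their separate counts are uncertain. Kif4 overlaps Pdzd11 by 832 bp of exon on the opposite strand, and Kif20a overlaps Cdc23 by 1271 bp. The strand setting of the counting is not given in the sources used here, so reads of such pairs may be shared.

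Transport members were split in direction. Of 19 tested with AC, 7 were negative and 12 positive, with a median of 0.04. Kif3c, a neuronal kinesin-2 motor, had 18.9, 18.2 and 18.9 CPM in WT + AC and 21.8, 21.3 and 20.8 in KO + AC. Kifap3 had 22.3, 24.0 and 22.2 CPM in WT + AC and 25.8, 26.4 and 25.4 in KO + AC. Neither group pair overlapped, yet the adjusted p values by edgeR were 0.068 and 0.06, and both genes were called when DESeq2 size factors replaced TMM scaling. Kif5b and Kif1b, lower in KO without AC, had values of 0.04 (95% interval -0.04 to 0.11) and -0.04 (-0.12 to 0.05) with AC. All 6 tested cilium members were negative, from -0.47 for Kif6 to -0.002 for Kif9; edgeR called 0 of them, with 0 at an unadjusted p under 0.05, and DESeq2 called 0. The sign of Kif9 turned with DESeq2 size factors.

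**Figure D4:**
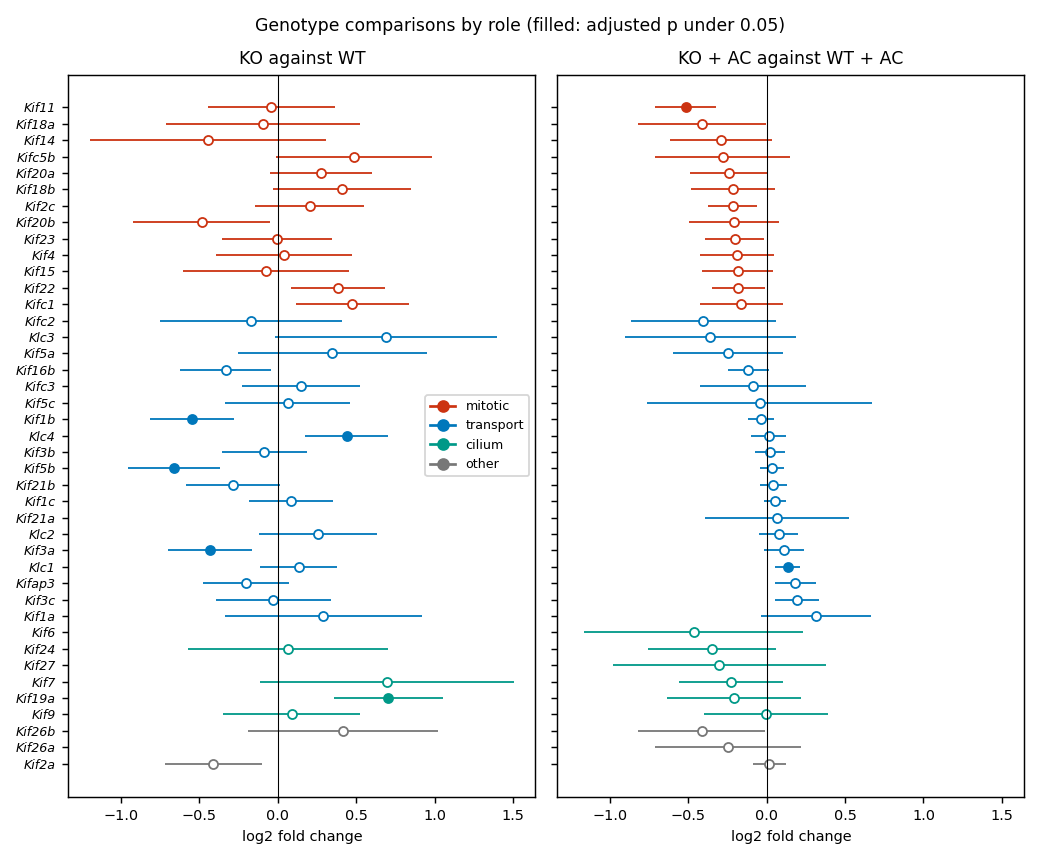
Log2 fold changes with 95% intervals for KO against WT (left) and KO + AC against WT + AC (right), by role, with filled points at an edgeR adjusted p under 0.05. The mitotic members all lie left of 0 on the right and on both sides of 0 on the left.

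Libraries with AC differed from those without in most kinesins, and in most genes. In WT, 26 of 41 tested members were higher and 8 lower with AC, where 85.0% of all genes passed the test, 48.3% upward and 36.7% downward. In KO, 21 members were higher and 9 lower, where 86.3% of all genes passed, 49.6% upward and 36.7% downward. Kif21a, Kif26a, Kif27 and Kif6 passed the filter only through their counts with AC, which favours a higher value. All of them were called higher in WT, and all but Kif6 in KO. They enter the counts below too, and the shares of all genes include genes of that kind as well. At least a 2-fold change was called for 20 members in WT, where 54.9% of all genes had one, and for 16 in KO, where 59.2% did. Groups did not overlap for 35 tested members in WT, against 86.6% of all genes, and for 31 in KO, against 86.7%. Negative values were found for 10 of 41 in WT, against 44.0% of all genes, and for 13 in KO, against 43.3%. By the main test, 20 members were higher in both genotypes, 6 lower in both (Kif19a, Kif5c, Kif9, Kifc1, Kifc3 and Klc4) and 1, Kif22, opposite. Over all genes, 45.4% were higher and 33.0% lower in both. Since AC and table coincide, these values cannot be told apart from a difference in how the tables were made. The part of RNA from the Jurkat cells in these values was not tested.

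Kif19a showed the steepest difference downward, with 360, 374 and 294 counts in WT and 34, 33 and 42 in WT + AC. In KO it had 494, 661 and 399 counts, and in KO + AC 30, 30 and 32. Levels with AC lay far below those without in every library, 11.4-fold lower in WT (log2 fold change -3.52, SE 0.197, edgeR adjusted p = 1.46e-14) and 21.1-fold lower in KO (-4.40, SE 0.197, edgeR adjusted p = 1.24e-16). Kif5c, the neuronal kinesin-1 heavy chain, went from 3.94 ± 0.502 to 0.617 ± 0.288 CPM in WT, scaled over all 12 libraries (log2 fold change -2.66, edgeR adjusted p = 7.56e-11), with a log2 fold change of -2.74 in KO. Klc4 went from 111 ± 7.56 to 36.9 ± 0.994 CPM in WT (-1.59, edgeR adjusted p = 4.94e-14), with -1.99 in KO. These genes held their calls in every alternative run, but the length and GC offset brought Klc4 to -0.88 in WT and -1.01 in KO, and Kif19a to -2.96 and -3.62.

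Among the higher members were motors of several roles. Kif21b, a kinesin-4 motor that regulates microtubule growth, went from 16.9 ± 1.81 to 67.1 ± 2.16 CPM in WT (log2 fold change 1.99), with 2.34 in KO. Kif7, the kinesin-4 motor of Hedgehog signalling at the cilium tip, went from 0.613 ± 0.254 to 3.69 ± 0.715 CPM in WT (2.58), with 1.68 in KO. Kif3c rose by 1.38 on the log2 scale in WT and 1.63 in KO, and Kif2a, a microtubule-depolymerising kinesin-13, by 1.38 and 1.83. Of the mitotic members, Kif15, which backs up Kif11 at the spindle, rose by 1.68 and 1.59 and Kif14, a motor of cytokinesis, by 1.61 and 1.79. These 12 values kept their calls under every alternative run. By role in WT, 7 of 13 mitotic members rose and 1 fell, 12 of 19 transport members rose and 5 fell, and 4 of 6 cilium members rose and 2 fell. Among the risers, the transport member Kif21a and the cilium members Kif6 and Kif27 were tested only through their counts with AC. In KO, 4 mitotic members rose and 4 fell, and 12 transport members rose and 3 fell.

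Length touched these values too, with a median log2 fold change of 4.51 in the shortest eighth of genes and 0.74 in the longest in WT. The median over all genes, 0.25, lay below both, so the values did not fall steadily with length. With the length and GC offset the members split 34 higher and 4 lower in WT and 25 higher and 5 lower in KO. The shares of all genes called with the offset were not worked out, so this split cannot be read as a trait of kinesins. The offset also moved the median of all genes from 0.25 to 0.55 in WT and from 0.32 to 0.57 in KO. Kif3a, lower in WT + AC than in WT by the main test (-0.66, edgeR adjusted p = 4.25e-07), was higher with the offset (0.20), and Kifc1 turned from -0.96 to 0.12 in KO. In WT, Kifc1 turned from -0.347 to 0.529 (edgeR adjusted p = 0.00108) and Kifap3 from -0.495 to 0.255 (edgeR adjusted p = 0.00348). Kif22 was no longer opposite with the offset, at 0.66 in WT and 0.10 in KO (edgeR adjusted p = 0.323). Kif9 lost its call in both genotypes with the offset. Kifc3, a minus-end directed kinesin-14 motor, was lower by the main test in both genotypes (-0.71 in WT and -0.92 in KO).

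Kif26a, an unconventional kinesin of enteric neuron development, had no count in 6 libraries without AC and 40, 26 and 30 counts in WT + AC and 25, 29 and 25 in KO + AC. Against 3 counts per library it was at least 8.76-fold higher in WT and at least 7.03-fold higher in KO. Kif12 had 1 to 6 counts with AC, Kif28 also 1 to 6 and Kif2b 1 to 8. Kif27 had 34 counts over the KO + AC libraries and 3 over KO, a ratio of 9.08 (95% exact Clopper-Pearson interval 2.86 to 46.2). Such gains were general, since 1465 of the 5878 protein coding symbols with no count without AC, or 24.9%, had a count in all 6 libraries with AC. Kif26a, at 4.22 counts per kb, was above 87.7% of those.

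**Figure D5:**
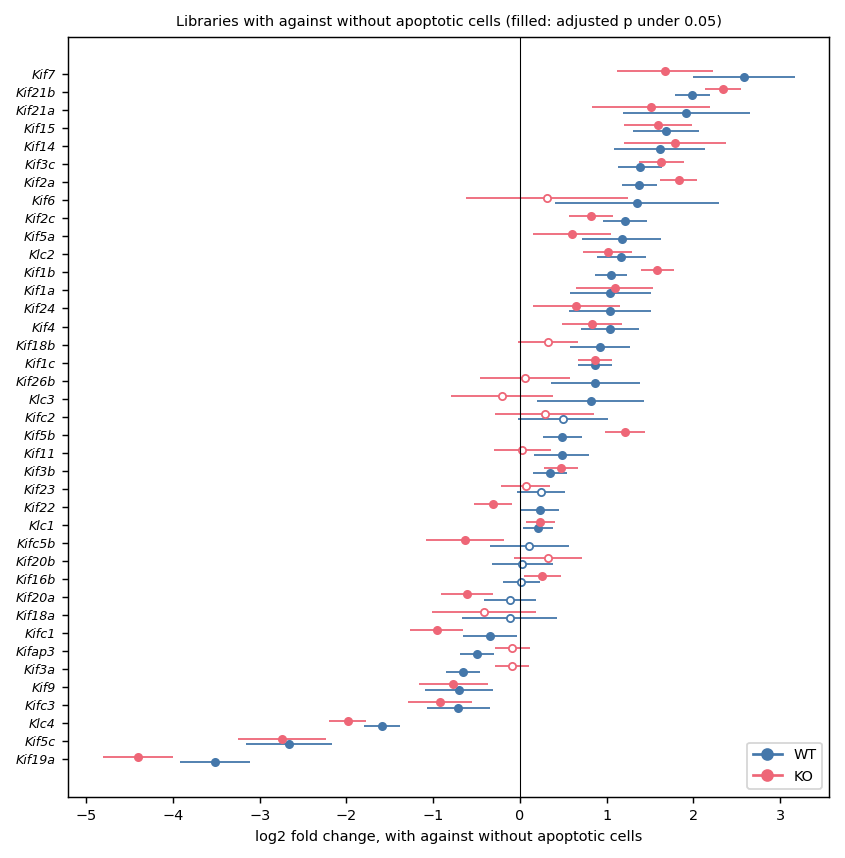
Log2 fold changes with 95% intervals for libraries with against without AC in WT and in KO, ordered by the WT value, with filled points at an edgeR adjusted p under 0.05; Kif26a and Kif27 are left out for their few counts without AC. In WT Kif7 and Kif21b stand highest, in KO Kif21b and Kif2a do, and Kif19a stands lowest in both, at -3.52 in WT and -4.40 in KO.

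The difference between the genotype effects with and without AC was tested as an interaction, which called 5 of 41 members, 4 higher and 1 lower, where 12.7% of all genes were called, 7.55% higher and 5.13% lower. No called member reached 2-fold, where 1.96% of all genes did, and 27 of 41 were negative, against 52.8% of all genes. A positive value means that the KO difference was more positive with AC. Kif5b gave 0.72 (SE 0.154, edgeR adjusted p = 0.00311): it was lower in KO without AC and had 135, 128 and 141 CPM in WT + AC and 136, 140 and 139 in KO + AC. Kif3a gave 0.57 (SE 0.136, edgeR adjusted p = 0.00716) and Kif1b 0.53 (SE 0.129, edgeR adjusted p = 0.0074). Their groups overlapped with AC for Kif1b, at 95.2 to 101 CPM in WT + AC and 91.6 to 99.3 in KO + AC. For Kif3a they did not, at 25.2 to 26.0 CPM in WT + AC and 26.1 to 29.7 in KO + AC. Kif22 gave -0.54 (SE 0.15, edgeR adjusted p = 0.0177), with 14.1, 14.7 and 14.6 CPM in WT + AC and 12.8, 12.2 and 13.3 in KO + AC. It was thus above WT in KO and below WT + AC in KO + AC, with no overlap in either pair.

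Kif2a gave 0.45 (SE 0.143, edgeR adjusted p = 0.0354), a call lost in 15 of 19 alternatives and at 0.06 with the length and GC offset. The call of Kif22 was lost without WT, KO + AC or WT + AC library 2, at edgeR adjusted p of 0.0507, 0.0633 and 0.0514, and those of Kif3a and Kif1b without KO libraries 1 and 2 together (0.0662 and 0.0754). Kif5b kept its call in all 19. Kif11, called in KO + AC against WT + AC, had an interaction of -0.45 (SE 0.225, edgeR adjusted p = 0.191). With the length and GC offset its interaction was -0.74 and was called (edgeR adjusted p = 0.0111), as it also was without KO libraries 1 and 2 together, so whether its genotype difference passed as differing between conditions turned on these choices. Of the 13 mitotic members 11 had a negative interaction, with a median of -0.40 against -0.03 over all genes, and Kif22 was the member called. With the offset 12 of 13 were negative, and Kif11 and Kif22 were called.

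Other genes of microtubule transport were counted as lists, with the shares of all genes above beside them. Of 20 dynein and dynactin genes tested without AC, 2 were higher and 1 lower in KO, and of 21 tested with AC 2 were higher. Dynlt3, a dynein light chain, was lower (-0.66, edgeR adjusted p = 0.00907) and Dctn3, a dynactin subunit, higher (0.41, edgeR adjusted p = 0.0427) without AC. Among 19 kinesin cargo adaptors 2 were lower in KO, the Rab exchange factor Dennd4c (-0.49, edgeR adjusted p = 0.0246) and the Rab effector Rabep1 (-0.42, edgeR adjusted p = 0.0375). With AC 1 of 20 was higher, the kinesin-1 adaptor Mapk8ip3 (0.14, edgeR adjusted p = 0.00989), and 1 lower, Mapk8ip1 (-0.53, edgeR adjusted p = 0.0257). Of the microtubule regulators, 1 of 17 was lower without AC, the minus-end binder Camsap2 (-0.50, edgeR adjusted p = 0.0395). With AC 1 of 19 was lower, the tubulin-sequestering protein Stmn1 (-0.15, edgeR adjusted p = 0.0124), and 1 higher, the kinesin-1 cofactor Map7d1 (0.10, edgeR adjusted p = 0.0468). Dynlt3, Dctn3, Dennd4c, Rabep1 and Camsap2 lost their calls with the length and GC offset. Stard9, a mitotic kinesin named outside the pattern, had 13.0, 13.3 and 13.7 CPM in WT and 8.49, 9.38 and 12.0 in KO (-0.42, edgeR adjusted p = 0.0603), did not pass with AC (0.10, edgeR adjusted p = 0.417) and was called in the interaction (0.54, edgeR adjusted p = 0.024).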

How the data were processed

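The authors deposited 2 tables of raw read counts per gene symbol, 1 for the 6 libraries without and 1 for the 6 libraries with AC. Reads were handled with fastp and HISAT2 2.0.5 on mm10, and DESeq2 1.20.0 is listed too, per the submitters' processing notes. Which program, annotation and strandedness served for counting is not given in the sources used here. The tables hold 54957 and 55367 symbols, of which 375 and 785 stand in 1 table only; the gene Kifbp is Kif1bp in the table without AC. All counts were used as deposited.

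In R 4.3.3, edgeR 4.0.16 with its robust two-sided quasi-likelihood test was run after filterByExpr by group and TMM scaling, on 12640 genes without AC, 16467 with AC and 16810 in a joint fit of 12 libraries, which gave the AC effects and the interaction. P-values were adjusted over all genes tested (Benjamini-Hochberg), and genes were called at an adjusted p under 0.05. CPM are counts per 1000000 of the scaled library. The common coefficient of variation was 0.117 without and 0.0294 with AC, so smaller differences could be called with AC. Exonic length, GC content and overlaps came from GENCODE vM21 and promoters from RefSeq GRCm38.p6. Pairs of libraries in a group differed by more than sampling noise, with a chi-square per degree of freedom of 4.96 to 35.5 without AC and 1.40 to 1.93 with AC. The scripts were tested on simulated data.

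The members, lists and tests were chosen with earlier results of these data known. Named genes were Kif13b, all members called in a genotype comparison, up to 6 called members each way for the AC effects and the interaction (mean of at least 1 CPM), the 6 highest per kb in WT and WT + AC, Cenpe, Stard9 and up to 2 called genes per list with the smallest p; other members were named after their values were seen. Alternatives were DESeq2 1.42.0, its size factors, no filter, a replicate block, an offset for length and GC, a change of the libraries fitted together (all 12 or the compared 6), a 2-fold minimum and leaving out each library; leaving out KO libraries 1 and 2 together for the AC effect in KO and the interaction, and the alternatives for the count of negative mitotic members, were chosen after seeing the data.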

Additional observations from a re-analysis of the deposited data

Results flagged for a closer look

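The genotype difference of 5 members differed between libraries without and with AC by the edgeR interaction test. The interaction was 0.72 for Kif5b, 0.57 for Kif3a, 0.53 for Kif1b, 0.45 for Kif2a and -0.54 for Kif22, all on the log2 scale. The genotype values behind them were -0.66, -0.43, -0.54 and -0.41 without AC and 0.04, 0.11, -0.04 and 0.02 with AC for Kif5b, Kif3a, Kif1b and Kif2a in that order. Kif22 had 0.38 without and -0.18 with AC. Kif2a lost its call in 15 of 19 alternatives. Condition and table cannot be told apart.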

How the results depend on the processing

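Of 515 recomputations of 36 called values of named genes, 457 kept the call and direction, 54 lost the call and 4 turned direction. The 4 were Kif3a in WT with AC (0.20 with the length and GC offset, also 0.20 with the replicate block added) and Kifc1 in KO with AC (0.12 and 0.13). Outside that count, the offset turned Kifc1 and Kifap3 in WT with AC from called lower to called higher. It changed the sign of 5 of 41 tested members in WT with AC and of 7 of 41 in KO with AC. The count of called members in KO against WT, 5, was 9 in the joint fit, 3 with the length and GC offset, 0 without KO libraries 1 and 2 together (1 KO library left, 5 at an unadjusted p under 0.05 by edgeR), 0 at a 2-fold minimum and 0 to 9 when 1 library was left out. With AC, the count of 2 was 0 in the joint fit (2 at an unadjusted p under 0.05), 1 by DESeq2, 4 with DESeq2 size factors (3 higher, 1 lower), 0 at a 2-fold minimum and 1 to 2 when 1 library was left out. At a 2-fold minimum the AC effect called 20 members in WT and 16 in KO, against 34 and 30. Leaving out 1 library gave 30 to 34 in WT and 26 to 31 in KO. DESeq2 split the AC effect in WT 30 higher and 7 lower, against 26 and 8. For the alternatives in this section other than the 2-fold minimum, the share of all genes called was not worked out. DESeq2 size factors moved the median of all genes in that comparison by 0.11, from 0.25 to 0.36. The interaction count of 5 was 0 at a 2-fold minimum and 3 to 10 when 1 library was left out: 10 without KO library 3, 8 without WT library 1 and 3 without WT, KO + AC or WT + AC library 2. The labels do not state if replicate numbers pair the libraries. Deviations of same-numbered libraries correlated at -0.22, 0.00 and 0.17 without AC and 0.04, -0.08 and -0.10 with AC. With 3 libraries per group, these correlations cannot decide if the libraries are paired. With the replicate block 6, 2, 33, 30 and 6 members were called in KO against WT, KO + AC against WT + AC, the AC effect in WT, in KO and the interaction, where Kifc1 joined in the first and Kif19a in the last. Kif17, Kif6 and Kif27 had few counts without AC and did not pass the filter there.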

Other observations

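Kif16bos, an antisense RNA gene of the Kif16b locus, had 1 count in WT library 2, 2 in KO library 2 and 1 in WT + AC library 1, and was listed at 0 in the other 9 libraries. Kif17, a kinesin-2 motor of cilia and dendrites, had 6, 9 and 6 counts in WT and 3, 5 and 5 in KO, which did not overlap, and 4, 12 and 8 in WT + AC and 5, 2 and 8 in KO + AC, which did. Kif6, a kinesin-9 motor of ependymal cilia, had 2 to 7 counts in WT and 2 to 11 in KO. The kinesin-binding protein gene, which restrains several kinesin motors and is not a member, had 529, 468 and 502 counts in WT and 458, 418 and 503 in KO under the symbol Kif1bp, and 325, 341 and 295 in WT + AC and 306, 300 and 301 in KO + AC under Kifbp.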
